A study of Homo sapiens with 2 samples.

Results

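TFAP2A and TFAP2C encode AP-2alpha and AP-2gamma, and their loci were examined for summits of ZMYND8 chromatin immunoprecipitation and sequencing (ChIP-seq). A summit is the position of highest signal within a called peak. The members are all summits of both deposited lists that fall within the hg19 span of either gene widened by 20 kb on each side. There were 14 of them among the 45924 summits of the parental list, 7 at each gene, and 0 among the 385 summits of the ZMYND8 knockout list. The loci were chosen from the measured summits themselves, because a TFAP2A summit stood high in the parental list with no knockout counterpart. The counts, scores and missing knockout summits below are therefore a description, with no test.

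The study set 1 library from wildtype (parental) MDA-MB-231 mammospheres against 1 from ZMYND8 knockout mammospheres of the same line. MDA-MB-231 is an established triple-negative breast cancer line, and mammospheres are cells grown in suspension as spheres, here in MammoCult medium. Both immunoprecipitations used the same antibody to ZMYND8, a bromodomain, PHD and PWWP protein that reads modified histones. The sources used here do not say how the knockout was made or whether it is 1 clone. Since each genotype has 1 library there is no replicate error, and every interval is at 95% and reflects counting alone. They do not give read depth either, and a longer list can come from deeper sequencing with no difference in binding. ZMYND8's own loss could not be checked, since summit lists carry no transcript or protein levels.

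AP-2 factors are DNA-binding proteins that act as dimers on GC-rich recognition sequences. They are known for their roles in neural crest, skin and trophoblast development. In breast cells AP-2gamma is best known as a regulator of the oestrogen receptor gene and of luminal identity, and AP-2alpha binds many of the same kinds of site. TFAP2A is transcribed from several alternative starts, and long noncoding RNA genes run antisense to it.

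TFAP2A (gene 7020) occupies chr6:10396916-10415470 of hg19 on the minus strand, in band 6p24.3. TFAP2C (gene 7022) occupies chr20:55204358-55214338 on the plus strand, in band 20q13.31. In the RefSeq gene table of assembly GRCh38.p14, the antisense long noncoding RNA genes TFAP2A-AS1 and TFAP2A-AS2 overlap TFAP2A. The nearest protein-coding genes there were GCNT2, which encodes a glycosyltransferase, on the upstream side of TFAP2A and SLC35B3, which encodes a transporter of the sulfate donor PAPS, on the downstream side. For TFAP2C they were FAM209B upstream and BMP7, a ligand of the TGF-beta superfamily, downstream. ChIP-seq summits carry no strand, so the summits inside TFAP2A cannot be assigned to the gene or to its antisense partners.

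Promoter sequences are shown for TFAP2A because 4 of its 7 summits lie inside a gene that has alternative and antisense starts. They come from RefSeq on GRCh38.p14, which is not the build of the summits, so no summit is placed on them. TFAP2A matched with 2 starts that lie 7268 bp apart, and TFAP2A-AS1 and TFAP2A-AS2 matched with 1 each. TFAP2C was not matched. Each run is the 250 bases before a start, read 5′ to 3′ on the gene's own strand, with every CpG dinucleotide in capitals. The TFAP2A windows are chr6:10419660-10419909 (upstream start) and chr6:10412392-10412641 (inner start), both on the minus strand, and the TFAP2A-AS2 window is chr6:10404252-10404501 on the plus strand.
TFAP2A, upstream start: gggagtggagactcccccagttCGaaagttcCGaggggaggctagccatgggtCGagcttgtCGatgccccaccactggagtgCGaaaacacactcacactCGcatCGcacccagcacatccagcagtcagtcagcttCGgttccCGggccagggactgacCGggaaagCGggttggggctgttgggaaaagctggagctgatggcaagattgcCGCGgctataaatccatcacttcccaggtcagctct
TFAP2A, inner start: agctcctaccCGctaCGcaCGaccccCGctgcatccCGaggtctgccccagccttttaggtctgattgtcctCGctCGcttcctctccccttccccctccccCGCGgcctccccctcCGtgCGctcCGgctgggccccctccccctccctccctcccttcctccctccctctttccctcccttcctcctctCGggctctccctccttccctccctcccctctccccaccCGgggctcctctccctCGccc
TFAP2A-AS2: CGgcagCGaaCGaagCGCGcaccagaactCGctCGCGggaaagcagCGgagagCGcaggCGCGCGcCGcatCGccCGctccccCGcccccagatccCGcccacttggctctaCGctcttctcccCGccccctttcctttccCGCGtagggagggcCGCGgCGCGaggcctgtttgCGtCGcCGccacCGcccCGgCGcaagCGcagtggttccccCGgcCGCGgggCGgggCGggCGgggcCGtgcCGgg

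The capitals show how the CpG dinucleotides are spread. The TFAP2A-AS2 window held 41 CpGs, more than 98.3% of the 35116 RefSeq promoter windows. The upstream and inner TFAP2A windows held 13 and 15, near the median of 11. The inner TFAP2A window was 81.2% C and T, a higher share than in 99.9% of windows. Of the sequence measures given here, only the AP-2 consensus was planned, so the ranks by CpG and by C and T are descriptions. The letters TATAAA, searched on both strands after the sequences had been seen, occurred 30 to 25 bases before the upstream TFAP2A start, in neither of the other sequences printed, and in 10.7% of all windows. The AP-2 consensus GCCNNNGGC, which is its own reverse complement, was in none of the 4 windows of TFAP2A and its antisense genes and in 19.8% of all windows. A match or its absence describes these letters only.

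The 58.6 kb TFAP2A window contained 7 parental summits (2.81 to 14.4, exact Poisson), 4 inside the gene, 3 upstream and 0 downstream. Each summit has a score, the authors' −log10 p or q value, which ranks summits within a list. The highest summit stood at position 10405010 of chromosome 6, inside the gene, 10460 bp from its start and 8094 bp from its end. Its score was 49.2, rank 28 of 45924 in the list and rank 1 of the 2606 parental summits on chromosome 6. The next score on that chromosome was 45.3, at position 18242513. The rest of the TFAP2A summits scored far below this one.

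The other summits inside TFAP2A lay toward its 5′ end. Those at 10411970 and 10413215, 3500 and 2255 bp inside the start, shared a score of 7.77, which 10.3% of the list exceeded. The one at 10414455, 1015 bp inside the start, scored 3.79, the median of the whole list. No TFAP2A summit was within 1 kb of the start of the hg19 span.

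Upstream of TFAP2A, the summits at 10417762 and 10419519, 2292 and 4049 bp from the start, both scored 2.14, and 85.7% of the list scored higher. The farthest upstream, at 10426496 and 11026 bp from the start, scored 6.70. The RefSeq gene on GRCh38.p14 is 22983 bp long, 4428 bp longer than the 18555 bp span used here. At which end the extra bases lie was not placed on hg19. If they lie at the 5′ end, the pair of summits within 4428 bp of the start would count as inside the gene.

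**Figure D1:**
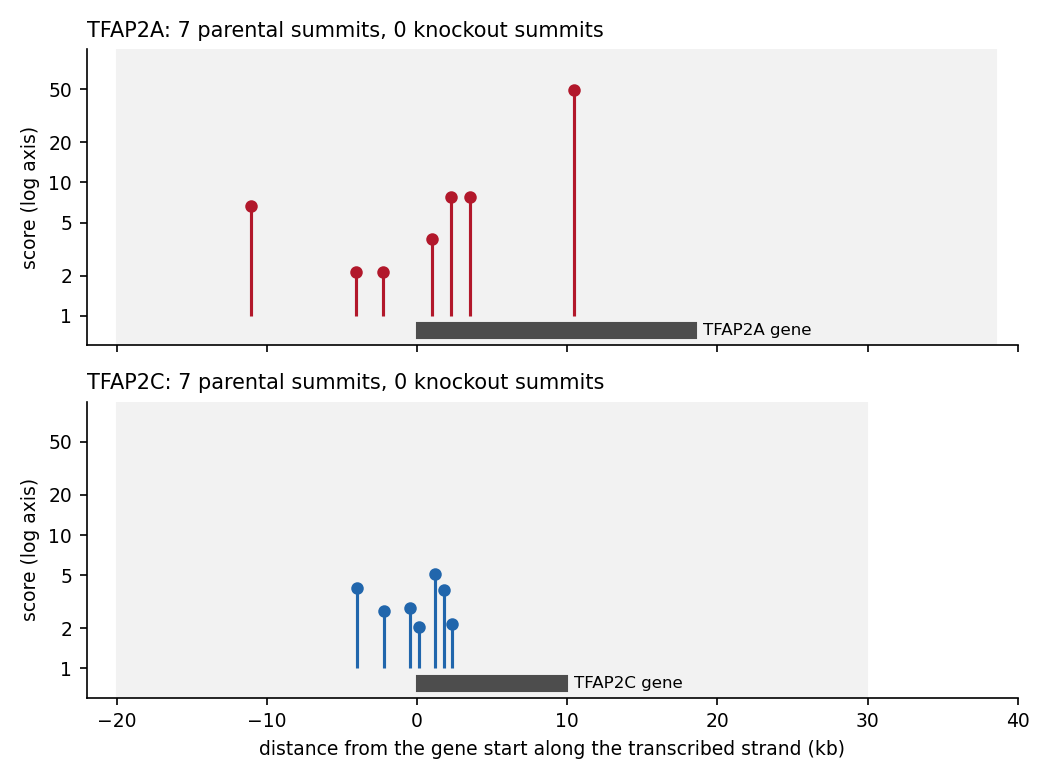
Parental summits at TFAP2A (top) and TFAP2C (bottom), by distance from the gene start along the transcribed strand in kb (x) and score, −log10 p or q, on a log axis (y). Each stem is 1 summit, grey shading is the searched window and the dark bar is the gene; the TFAP2A summit with a score of 49.2 stands alone 10460 bp into the gene, whereas the 7 TFAP2C summits crowd around the start with scores of 2.05 to 5.09.

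At TFAP2C the parental list also held 7 summits (2.81 to 14.4), in a 50 kb window, with 3 upstream, 4 inside the gene and 0 downstream. All 7 lay within 5 kb of the start, in a stretch of 6.33 kb that straddled it. The nearest to the start was at position 55204472 of chromosome 20, 114 bp inside the gene. It had the lowest score of the 7, at 2.05, and 94.6% of the list scored higher. The summit on the other side, at 55203897 and 461 bp upstream, scored 2.85, which 79.7% of the list exceeded. These were the only 2 of the 14 members within 1 kb of the start of either hg19 span. The alternative and antisense starts of TFAP2A were not placed on hg19, so summit distances to them are unknown.

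The highest TFAP2C score was 5.09, at 55205526, 1168 bp inside the gene, rank 680 of the 1881 parental summits on chromosome 20. Farther inside, the summit at 55206141 (1783 bp) scored 3.89 and that at 55206704 (2346 bp) scored 2.14. Upstream, 55202171 (2187 bp) scored 2.70 and 55200375 (3983 bp) scored 3.98. The last 7634 bp of TFAP2C and the 20 kb beyond it held no summit.

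Parental summits just outside the windows were not members. Outside the TFAP2A window the next parental summits were at 10442503, 7.03 kb past the upstream edge with a score of 5.68, and at 10317582, 59.3 kb past the downstream edge with a score of 2.14. Outside the TFAP2C window they were at 55261012, 26.7 kb past the downstream edge with a score of 3.58, and at 55043407, 141.0 kb past the upstream edge with a score of 4.83. The TFAP2C run thus stood 157.0 kb from the next summit upstream and 54.3 kb from the next downstream.

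Scores differed between the loci more than counts did. TFAP2A scores ran from 2.14 to 49.2 with a median of 6.70, and TFAP2C scores from 2.05 to 5.09 with a median of 2.85. The ranges overlap: 3 TFAP2A summits scored below the highest at TFAP2C. A score of at least 10 was reached by 1 of 7 TFAP2A summits and 0 of 7 TFAP2C summits, against 6.27% of the parental list. At or above the 75th percentile of the list, a score of 5.68, were 4 of 7 TFAP2A summits (57.1%, exact binomial interval 18.4 to 90.1) and 0 of 7 at TFAP2C (0 to 41), against 26.1% of the list. Summits of a locus share 1 library and lie close together, so they are not independent and the shares are not tested against the list.

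**Figure D2:**
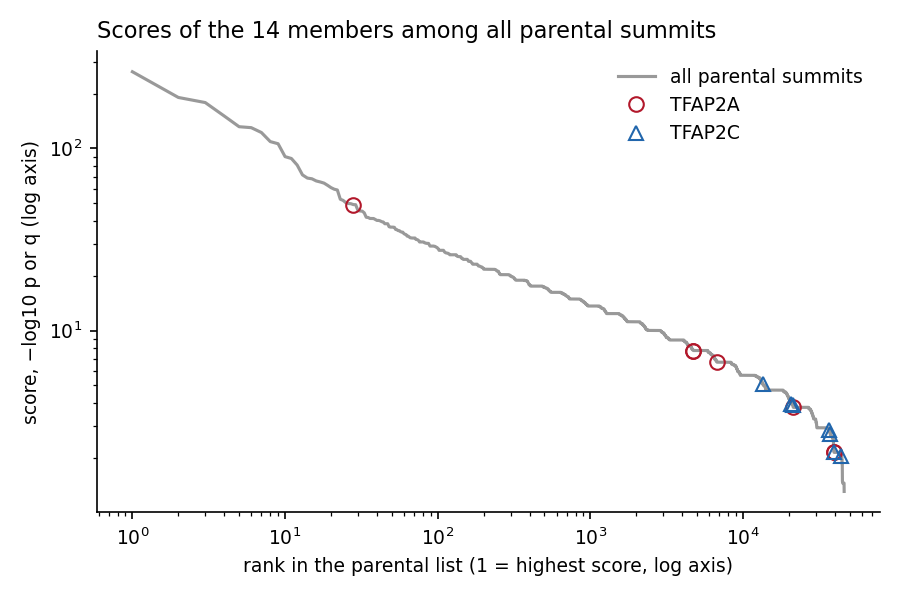
Score (y, −log10 p or q, log axis) against rank (x, log axis) for all 45924 parental summits (grey line), with the 7 TFAP2A summits as circles and the 7 TFAP2C summits as triangles. 1 TFAP2A summit, at rank 28, stands among the highest of the list, and all TFAP2C summits stand at rank 13440 or lower.

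The kind of score also differed. MACS2 computes a score from the reads piled up at the summit and a local background, so summits with equal pileup and equal background receive the same value. The 10 commonest values made up 56.5% of the parental list. They were found at 6 of 7 TFAP2A summits, the highest being the exception, and at 1 of 7 TFAP2C summits. The share was 57.1% on chromosome 6 and 15.9% on chromosome 20, the lowest of the 23 chromosomes, and the part of this in the TFAP2C scores was not tested. Median scores were 3.79 on chromosome 6 and 4.20 on chromosome 20.

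Both windows were denser in parental summits than their surroundings. TFAP2A held 119.5 summits per Mb (48.1 to 246.3), band 6p24.3 held 24 and chromosome 6 held 15.2. TFAP2C held 140.1 per Mb (56.3 to 288.6), band 20q13.31 held 31.3 and chromosome 20 held 29.8. These densities depend on the flank: with no flank they were 215.6 at TFAP2A and 400.8 at TFAP2C, and with 50 kb 84.3 and 72.7. In windows of the same length tiled along chromosomes 1 to 22 and X, 3.02% of 51841 windows held at least as many parental summits as TFAP2A, and 2.43% of 60736 at least as many as TFAP2C. Most windows were empty (71.1% and 73.6%). Among the 15001 and 16008 windows with at least 1 summit, whose median was 2, the shares were 10.4% and 9.21%. The fullest windows held 54 and 45 summits, well above the 7 at either locus. Summits thus cluster, whereas the Poisson intervals for counts and densities take them as independent. Those intervals are therefore likely too narrow. The TFAP2A and TFAP2C windows are centred on a gene and the tiles are not, and this difference was not adjusted for.

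**Figure D3:**
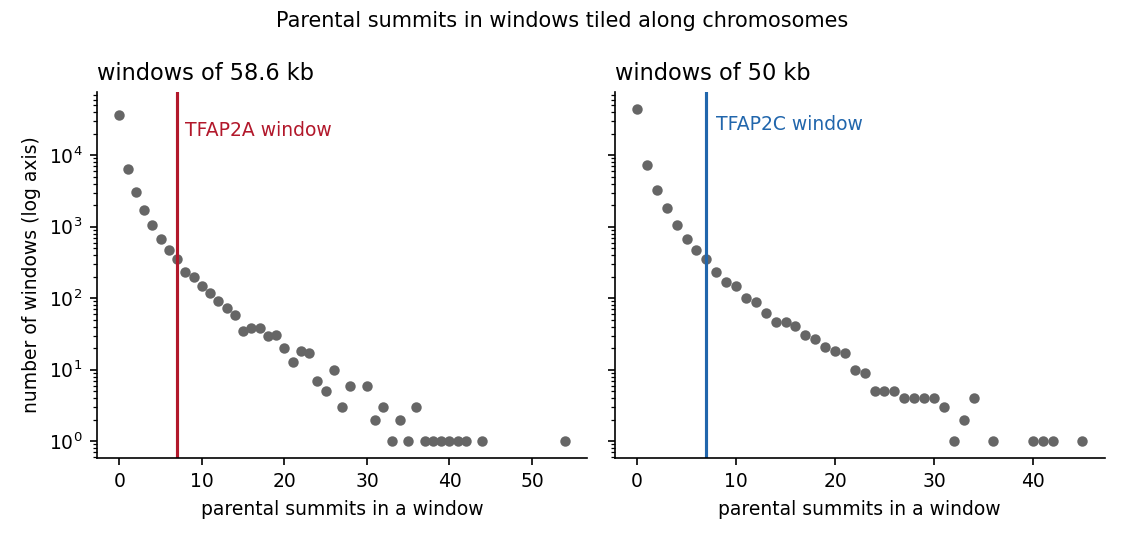
Number of tiled windows (y, log axis) by the parental summits they hold (x), for windows of the TFAP2A length (left, 58.6 kb) and the TFAP2C length (right, 50 kb), with grey points for counts of windows and a coloured line at the 7 summits of each locus. Most windows hold 0 summits, and the tail reaches 54 and 45.

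Spacing was tighter at TFAP2C than at TFAP2A. Neighbouring summits were 563 to 1796 bp apart at TFAP2C (median 834) and 1240 to 6977 bp apart at TFAP2A (median 2532). The median gap was 2305 bp over chromosome 20 and 7495 bp over chromosome 6. Another parental summit lay within 2000 bp of all 7 TFAP2C summits and of 5 of 7 TFAP2A summits, against 56.1% of the parental list. The highest TFAP2A summit was 1 of the pair without such a neighbour, with the nearest 6960 bp away. Of the 28 parental summits that scored at least as high, 4 had their nearest neighbour farther off, and their median was 1529 bp. The nearest other summit with a score of at least 10 was 1366 kb away, at position 11770661.

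In the knockout list neither window held a summit. Not 1 of the 14 members lay within 1000 bp of a knockout summit, as was the case for 98.8% of the parental list. The empty knockout windows were likewise common: 99.3% of windows of the TFAP2A length and 99.4% of those of the TFAP2C length held no knockout summit. Among the windows with at least 7 parental summits these shares were 92.6% and 93.1%. Absence from the knockout list at these loci is thus what nearly all of the parental list shows.

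For the highest TFAP2A summit a closer background is the 28 parental summits that scored at least as high. A knockout summit lay within 1000 bp of 19 of these, 12 of which were in the 15q24.2 run of summits seen in both genotypes. Outside 15q24.2 it was 7 of 16. The other 9, TFAP2A included, had none, and 5 of those 9 were in 14q11.2. This is the value on which the TFAP2A locus was picked, so nothing is read from it.

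The knockout summits nearest to the loci lay 0.76 to 7.35 Mb from the gene starts, and each had a parental summit 35 to 76 bp away. How many of all 385 knockout summits have a parental summit nearby was not counted. The partners are therefore not read as a trait of these loci. Upstream of TFAP2A the nearest was at position 12492459 of chromosome 6, 2.08 Mb from the start, with a score of 5.94; the parental list held a summit 35 bp away with a score of 25.5. On the downstream side it was 7.35 Mb away, at 3068893, and scored 4.65, with a parental summit scoring 4.71 at 43 bp. Downstream of TFAP2C the nearest was at 55964627 of chromosome 20, 0.76 Mb from the start, and scored 3.18, while the parental list had a summit scoring 3.79 at a distance of 76 bp. On the upstream side it was 5.63 Mb away, at 49574859, and scored 4.06, with a parental summit scoring 1.68 at 54 bp. Scores of the lists were assigned separately, so the pairs are not read as a change. Chromosomes 6 and 20 held 17 and 41 knockout summits in all, over 171.1 and 63 Mb. Knockout summits were thus sparse on both, and distances of this order do not set the loci apart.

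Counted outward from the starts, parental summits accumulated differently at the loci. Within 5 kb there were 5 at TFAP2A and 7 at TFAP2C, and within 20 kb 7 at each. Within 50 kb TFAP2A had 10 and TFAP2C still 7. Between 100 and 200 kb the TFAP2A count rose from 12 to 29. On the upstream side it went from 7 to 23 and on the downstream side from 5 to 6. The neighbouring genes were not placed on hg19, so these summits are not assigned to any of them. At TFAP2C the count went from 9 to 14. Within 1000 kb the counts were 49 and 45 parental summits, and 0 and 1 knockout summits.

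**Figure D4:**
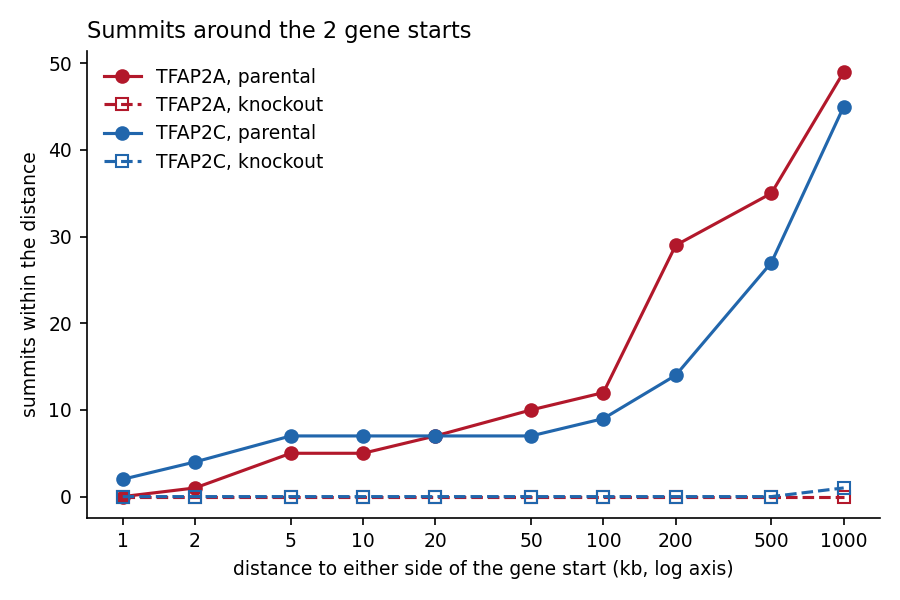
Summits (y) within a given distance to either side of each gene start (x, kb, log axis) in the parental list (filled circles) and the knockout list (open squares). The TFAP2C line stays at 7 from 5 to 50 kb, the TFAP2A line climbs from 12 to 29 between 100 and 200 kb, and the knockout lines stay at 0 up to 500 kb.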

How the data were processed

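ChIP-seq with an antibody to ZMYND8 gave 1 summit list per library, grouped by the labels' genotype. Per the submitters' processing notes, the tools were MACS2 2.0.10, Bowtie2 2.2.3, Picard 1.127 and FastQC 0.11.2 and the build was hg19, without roles or settings; for the control library, threshold and duplicate handling, nothing is stated in the sources used here. The deposited score of each summit is the authors' −log10 of p or of q; the notes do not say which. Spans were those of the selection rule, and positions are 1-based. Members and lists were chosen with earlier results of these data known. Full values are given for every summit in both windows. Intervals are exact Poisson and Clopper-Pearson. Chromosome lengths and bands of hg19 came from circlize 0.4.16, gene names and promoters from RefSeq GRCh38.p14. The AP-2 cofactors and TFAP2B, TFAP2D and TFAP2E were not placed on hg19 here. Window counts were tested with summits planted in the parental list, and distances with shifted knockout summits. Tiling and merging were tested on a small artificial list. Scripts ran in Python 3.11.15 with scipy 1.17.1, numpy 2.4.6, pandas 2.3.3 and matplotlib 3.10.9. Alternatives covered flanks, score minimums, merging, partner distances and tiling. No test between libraries was possible.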

Additional observations from a re-analysis of the deposited data

How the results depend on the processing

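No paired analysis was possible because each genotype has 1 library. A count was taken to hold within 1.5 times of its main value, and a density or share within its 95% interval. Of 42 alternatives 31 held and 11 did not; 16 of the 31 were knockout counts of 0 or shares of 100% that were repeated. With no flank each gene held 4 parental summits, and the TFAP2C density was 400.8 per Mb, and none of these values held. The TFAP2A density with no flank, 215.6 per Mb, did hold. So did the densities with a 50 kb flank, 84.3 at TFAP2A and 72.7 at TFAP2C. The remaining values that did not hold are as follows. At a score of at least 5 there were 4 summits at TFAP2A and 1 at TFAP2C, and at 10 there were 1 and 0. In the highest scoring 10% of the list were 14.3% of TFAP2A summits, and in the highest 50% were 42.9% of TFAP2C summits. Over tiles with at least 1 summit, 10.4% held as many as TFAP2A and 9.21% as many as TFAP2C. The values that did not hold came with settings that change the searched span or how many summits or windows are kept. Unknown read depth and 1 library per genotype limit each comparison of the lists.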

Other observations

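The other AP-2 genes are described here by their RefSeq promoter windows only. Of the 5 family members, 4 had a window of 250 bases before a start. The windows of TFAP2B and TFAP2D, which also lie on chromosome 6, held 5 and 3 CpGs and were 40.8% and 39.2% G and C. The TFAP2E window held 16 CpGs and was 62.4% G and C, closer to the upstream TFAP2A window at 59.6%. The median over all windows was 58%. TATAAA, searched on both strands, occurred 202 to 197 bases before the TFAP2B start and 55 to 50 bases before the TFAP2D start. It was not in the TFAP2E window, and GCCNNNGGC was in none of the 3. The TFAP2A-AS1 window held 24 CpGs and was 30.8% C and T, a lower share than in nearly all windows (0.632% were lower still). The C and T share was not a planned measure.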
